A study of Mus musculus with 5 samples.

Results

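In mouse mesenchymal stem cells (MSC), 6 of the 22 clustered protocadherin beta genes (Pcdhb) had probe sets with their symbol alone in the deposited table. All 8 of these probe sets were lower after exposure to activated T cells than in MSC alone. The table holds only probe sets that separate the groups, and 51.3% of all its probe sets were likewise lower. The members were every probe set whose single gene symbol started with Pcdhb: 8 of the 3373 probe sets in the deposited table, covering 6 of its 2190 named genes (Pcdhb16, Pcdhb17, Pcdhb19, Pcdhb20, Pcdhb21 and Pcdhb22). Of the 22 Pcdhb genes that RefSeq lists in the mouse, the other 16, Pcdhb1 to Pcdhb15 and Pcdhb18, were not analysed here. Throughout, a gene counts as in the table only if a probe set carries its symbol alone. The 69 probe sets with several symbols were not searched for genes.

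Expression was measured on Affymetrix arrays with total RNA from MSC purified from mouse bone marrow and grown as primary cultures in Mesencult medium. The co-cultured group held 2 arrays of MSC kept for 48 h in transwells with purified T cells that had been activated with antibodies to CD3 and CD28; there were 10 T cells for each MSC. The group of MSC alone held 3 arrays. The membrane of a transwell keeps the cells apart and lets soluble products through. Each array is labelled as a biological repetition, but the labels name no animal, strain, age or culture, so the spread between arrays may be partly technical.

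Clustered protocadherins are cadherin-type adhesion proteins of the cell surface that bind the same isoform on a neighbouring cell. Their genes lie in tandem as the alpha, beta and gamma clusters on mouse chromosome 18. Unlike alpha and gamma genes, each beta gene is a single coding exon behind its own promoter and shares no constant exons with its neighbours. In neurons, where they are best known, each cell uses a few promoters of the cluster, a choice that involves the insulator protein CTCF, cohesin and DNA methylation, and the resulting mixture of isoforms helps a neuron to recognise its own branches.

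Every probe set of the table separated the groups: the closest approach of the groups in any probe set was 0.34 (log2), and 100% of probe sets had an adjusted p below 0.05 in limma. The table is therefore treated as chosen on this comparison, the values below are a description with no test, and they do not say how a Pcdhb gene outside the table behaved. Of all probe sets 926 were at least 2-fold higher and 1189 at least 2-fold lower in co-culture. With each array centred on its median these counts were 1167 and 961. The medians of the groups differed by -0.16 in a table of separating probe sets only, so centring may also remove part of the difference itself. Of the 13 listed MSC and stromal markers 4 were in the table, 2 higher and 2 lower in co-culture, where 51.7% of all named genes were lower. Pdgfra and Vcam1 differed by 3.77 and 2.91 on the log2 scale, and Pdgfrb and Cd44 by -2.55 and -0.86. The other 9, Thy1 and Eng among them, were not analysed here.

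Values are given as deposited, on the log2 scale of RMA, for replicates 1 and 2 of co-culture and then replicates 1, 2 and 3 of MSC alone. The plot of Pcdhb values by array shows all 8 probe sets. Differences are co-culture minus MSC alone with the standard error (SE) that limma gives over the whole table. RMA makes no detection call, so no member could be called present or absent.

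**Figure D1:**
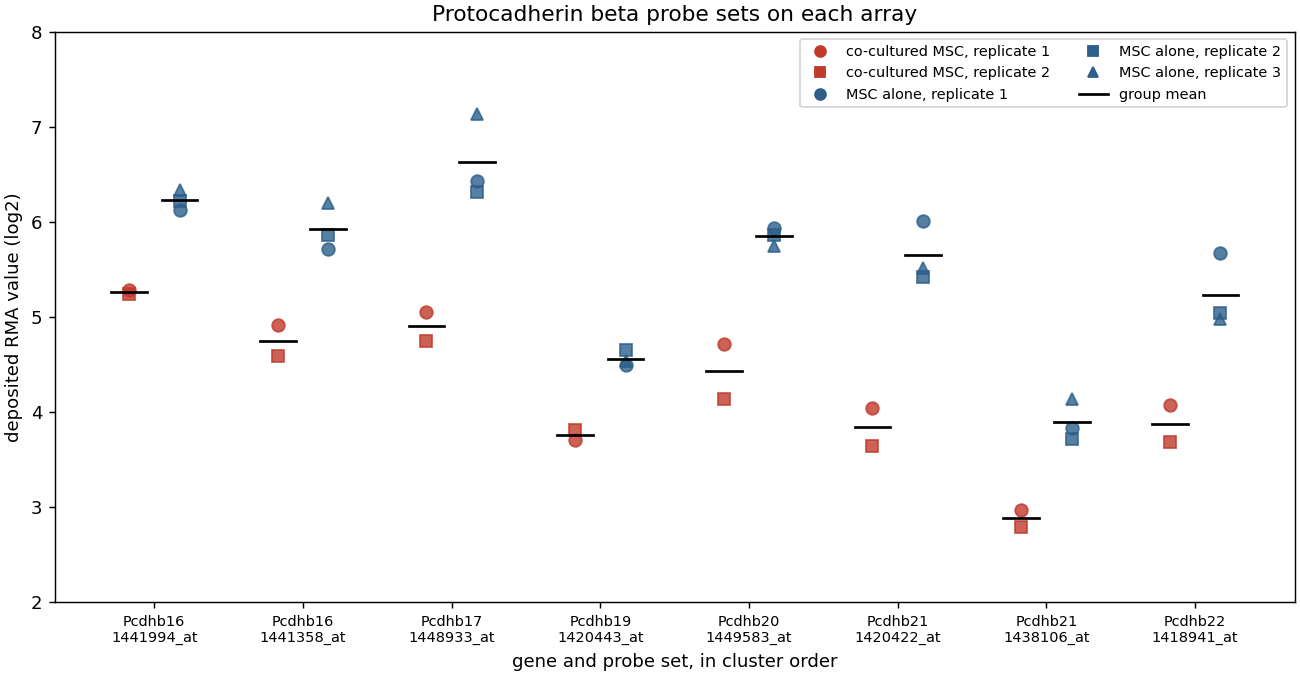
Deposited RMA values (log2, vertical axis) of the 8 Pcdhb probe sets (horizontal axis, in cluster order) on each array, co-cultured MSC to the left in red and MSC alone to the right in blue; marker shapes give the replicate and bars the group mean. In every probe set both co-culture arrays lie below all 3 arrays of MSC alone, with co-culture values from 2.80 to 5.29 and values of MSC alone from 3.72 to 7.14.

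Pcdhb16, the first gene of the cluster in the table, was measured by a pair of probe sets. The brighter one, 1441994_at, stood at 5.29 and 5.25 in co-culture and at 6.13, 6.23 and 6.34 in MSC alone. The other, 1441358_at, stood at 4.92 and 4.59 in co-culture and at 5.72, 5.87 and 6.20 in MSC alone. In both, co-culture replicate 2 was the lowest array and MSC replicate 3 the highest. The difference was -0.96 ± 0.17 (SE) in the brighter probe set, 1.95-fold lower in co-culture, and -1.18 ± 0.22 in the dimmer one, 2.26-fold lower. Both probe sets were designed on expressed sequence tags and not on the gene's RefSeq transcript, by the accession the annotation gives.

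Pcdhb17, the next gene in order, had the second largest difference of the genes. It stood at 5.06 and 4.75 in co-culture and at 6.43, 6.32 and 7.14 in MSC alone. Replicate 3 of MSC alone stood above the other arrays of its group, which span 0.83 in all, the widest range of any member there. The group means were 4.91 ± 0.22 in co-culture (SD, n = 2) and 6.63 ± 0.45 in MSC alone (SD, n = 3), a difference of -1.73 ± 0.29 (SE) or 3.31-fold; without MSC replicate 3 it was -1.47.

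Pcdhb19 had the smallest difference of the members and the narrowest range in MSC alone. It stood at 3.71 and 3.82 in co-culture and at 4.49, 4.66 and 4.54 in MSC alone. It was the only member in which co-culture replicate 1, not replicate 2, was the lower array. The difference was -0.80 ± 0.17 (SE), 1.74-fold lower in co-culture, with a distance of 0.67 between the nearest arrays of the groups.

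Pcdhb20 stood at 4.72 and 4.14 in co-culture and at 5.94, 5.87 and 5.75 in MSC alone. The co-culture arrays were farther apart, by 0.58, than in any other member, while the arrays of MSC alone spanned 0.20. The means were 4.43 ± 0.41 in co-culture (SD, n = 2) and 5.85 ± 0.10 in MSC alone (SD, n = 3), a difference of -1.42 ± 0.23 (SE) or 2.68-fold. Leaving out co-culture replicate 1 gave -1.71, and leaving out co-culture replicate 2 gave -1.13.

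Pcdhb21 had the largest difference of the 8 members in one of its probe sets and a smaller one in the other. Probe set 1420422_at, designed on the RefSeq transcript, stood at 4.05 and 3.65 in co-culture and at 6.02, 5.43 and 5.52 in MSC alone. Probe set 1438106_at, designed on an expressed sequence tag, stood at 2.98 and 2.80 in co-culture and at 3.84, 3.72 and 4.14 in MSC alone. The arrays of MSC alone were not ordered alike: replicate 1 was the highest in the brighter probe set and replicate 3 in the dimmer. The differences were -1.81 ± 0.25 and -1.01 ± 0.20 (SE), or 3.50-fold and 2.01-fold lower in co-culture, so the size of the change in Pcdhb21 depended on the probe set. The co-culture values of the dimmer probe set were close to 2.62, the lowest value deposited; whether this bears on its smaller difference was not tested.

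Pcdhb22, the last gene of the cluster, stood at 4.07 and 3.69 in co-culture and at 5.67, 5.05 and 4.98 in MSC alone. Replicate 1 of MSC alone stood above the other arrays of its group, as it did in the brighter probe set of Pcdhb21. The means were 3.88 ± 0.27 in co-culture (SD, n = 2) and 5.23 ± 0.38 in MSC alone (SD, n = 3). The difference was -1.35 ± 0.28 (SE), 2.56-fold lower in co-culture, and -1.13 without MSC replicate 1.

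Both co-culture arrays lay below all 3 arrays of MSC alone in 8 of 8 Pcdhb probe sets, against 51.3% of all probe sets in the table. At least 2-fold lower were 6 of the 8 members, against 35.3% of all probe sets, and 4 of the 6 genes, against 35% of the named genes, each taken at its brighter probe set. Those shares take in the higher probe sets and genes. Among the lower ones alone, 1189 of 1731 probe sets and 767 of 1133 named genes were at least 2-fold lower, so the members did not stand out. With each array centred on its median 5 of the 8 were at least 2-fold lower, against 28.5% of all probe sets, higher ones included. All 6 genes were lower, as were 51.7% of named genes. The members were proposed with these values known and share sequence and position, so these shares only describe them.

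The median difference was -1.27 over the Pcdhb probe sets, against -0.58 over the whole table, in which higher and lower probe sets are mixed. Among the 1731 lower probe sets of the table the median was -1.23, so the members' median differed from it by little. The largest member difference, that of Pcdhb21 probe set 1420422_at, was exceeded by 389 of the 1731 lower probe sets (22.5%), and the smallest, that of Pcdhb19, by 1444 (83.4%). The histogram of all differences shows the members within the main body of the lower probe sets.

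**Figure D2:**
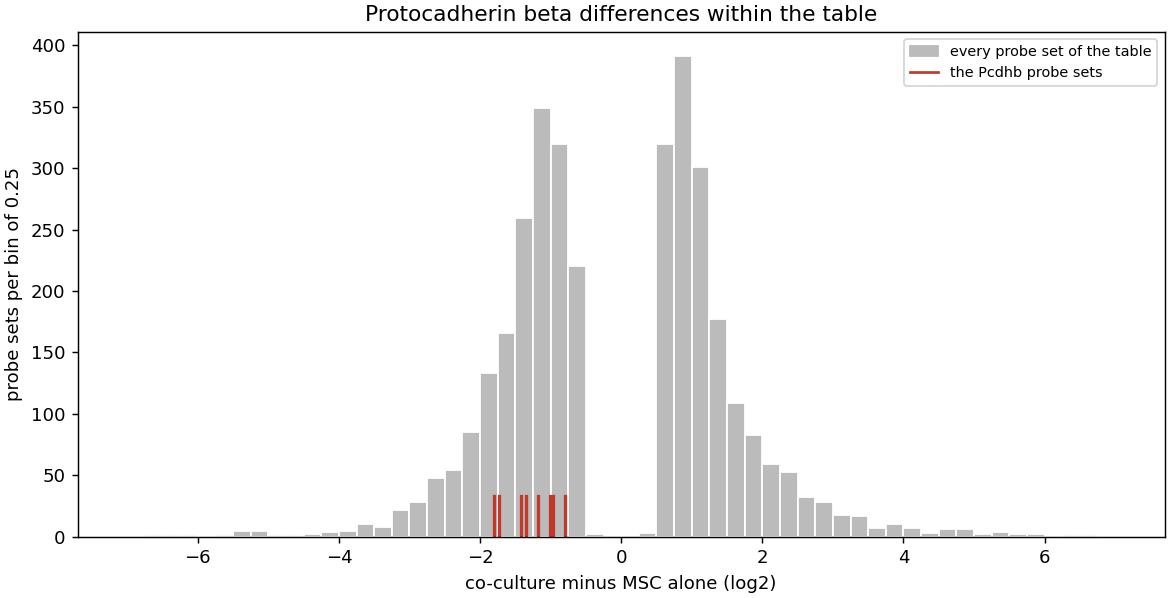
Histogram of the difference between co-culture and MSC alone (log2, horizontal axis) over the 3373 probe sets of the table, as probe sets per bin (vertical axis); red ticks mark the 8 Pcdhb probe sets. The ticks lie between -1.81 and -0.80, within the bulk of the lower probe sets, and the empty middle comes from a table that holds no probe set with a small difference.

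All 8 members were among the dimmest 25% of the table by mean over the 5 arrays, at or under 6.24. Of the 844 probe sets in that range 51.2% were lower in co-culture and 32.1% at least 2-fold lower, and the median over its lower ones was -1.15. The pooled SD of the members within groups lay between 0.08 and 0.39 with a median of 0.24, against a median of 0.26 over the table. That mean takes in the low co-culture arrays: member values ran from 2.80 in co-culture (1438106_at) to 7.14 in MSC alone (Pcdhb17), with 2.62 the lowest deposited. Without a detection call it cannot be said which of these values lie above background.

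Within the groups the order of the arrays was not the same in every member. Co-culture replicate 2 was the lower array in 7 of the 8 members, and in 77.5% of the 1731 lower probe sets. In MSC alone replicate 1 was the highest array in 3 members (Pcdhb20, Pcdhb22 and the brighter probe set of Pcdhb21), replicate 2 in 1 (Pcdhb19) and replicate 3 in 4 (both of Pcdhb16, Pcdhb17 and the dimmer of Pcdhb21). Over the lower probe sets of the table these shares were 40.3%, 11.4% and 48.3%.

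The genes in the table lie together at one end of the cluster. In the RefSeq gene order of assembly GRCm38.p6 they are the genes at places 16, 17, 19, 20, 21 and 22 of 22, and Pcdhb18 is the only gene between them that was not analysed here. How the other genes of the cluster behaved is not known from this table, so the change cannot be called confined to these places. The difference showed no steady course along these places: the larger ones, of Pcdhb17 and Pcdhb21, stand beside smaller ones of Pcdhb16, Pcdhb19 and Pcdhb22. Spearman's rho between place and difference was -0.31 over the 6 genes, which share all 5 arrays. Paralogous beta genes are close in sequence, so a probe set may bind the transcript of a neighbour, and how far it does was not tested.

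**Figure D3:**
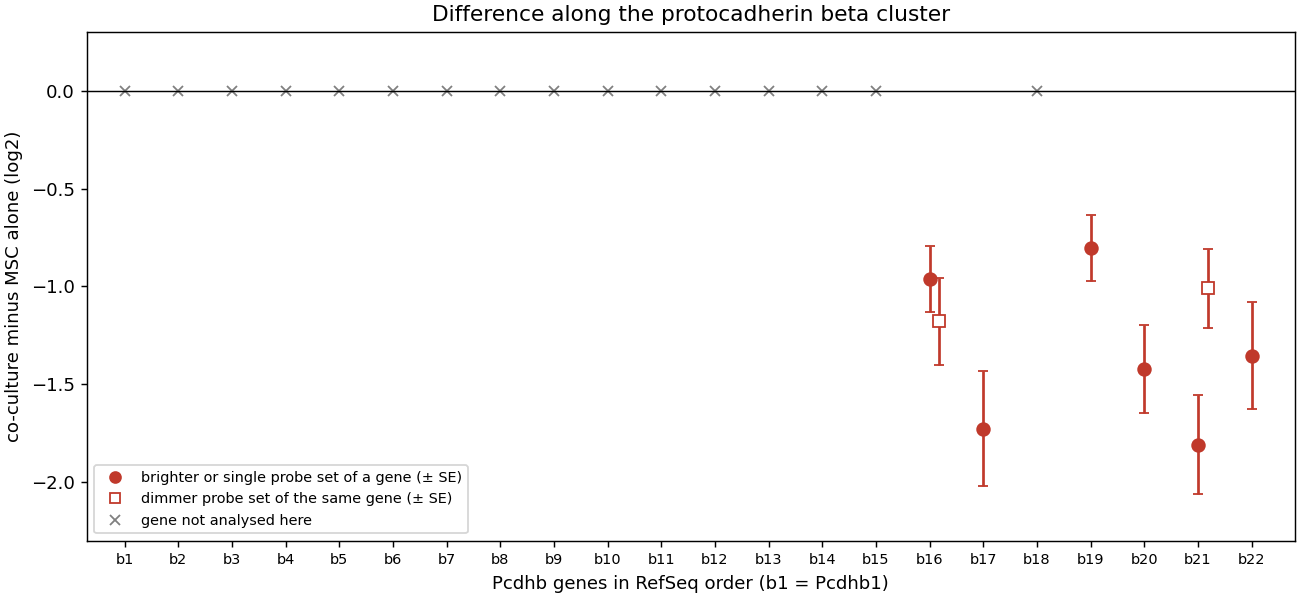
Difference between co-culture and MSC alone (log2, vertical axis, ± SE) for the Pcdhb genes in RefSeq order (horizontal axis); filled circles are the brighter or single probe set of a gene, open squares the dimmer one, and grey crosses on the zero line mark genes not analysed here, not a value. The values lie at places 16 to 22 and run from -1.81 at Pcdhb21 to -0.80 at Pcdhb19 with no steady course.

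Neighbouring genes gave no further values close by. The 2 other annotated genes between Pcdhb1 and Pcdhb22 had no probe set of a single symbol in the table. Nor did any of the 10 nearest genes on either side. None of 36 listed alpha and gamma protocadherins and 21 listed non-clustered protocadherins and related large cadherins were analysed here. Probe sets with several symbols were not searched for any of these genes. The nearest gene of the table before the cluster, with 58 annotated genes between, was Ube2d2a, a ubiquitin-conjugating enzyme gene, at 8.24 and 8.08 in co-culture and 9.57, 9.19 and 9.73 in MSC alone (difference -1.33 ± 0.22, SE). The nearest after it, with 46 genes between, was Dele1, a relay of mitochondrial stress, which was higher at 7.74 and 7.92 in co-culture against 7.15, 7.22 and 7.31 in MSC alone (0.61 ± 0.17, SE). Both were chosen after the table had been searched for them.

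The genes most like the Pcdhb genes over the 5 arrays were Mcm6, Map3k7, Sar1a, Bmpr2 and Slc25a14. Likeness was the Euclidean distance between a gene's values, centred on their mean, and the median centred profile of the 6 Pcdhb genes, which was -0.59 and -1.07 in co-culture and 0.58, 0.40 and 0.48 in MSC alone. Mcm6, a subunit of the replicative helicase, was at a distance of 0.12 with values of 8.12 and 7.65 in co-culture and 9.34, 9.20 and 9.21 in MSC alone. Map3k7, the kinase TAK1, was at 0.14, Sar1a, a GTPase of vesicle budding, at 0.18, and Bmpr2, a BMP receptor, and Slc25a14, a mitochondrial carrier, each at 0.19. The Pcdhb genes themselves lay between 0.22 (Pcdhb20) and 0.79 (Pcdhb17) from this profile. As many as 730 of the 2184 other named genes lay no farther from it than Pcdhb17 did. That limit is wide, being set by the farthest member. The count thus shows only that a profile this loosely alike is not particular to the Pcdhb genes.

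**Figure D4:**
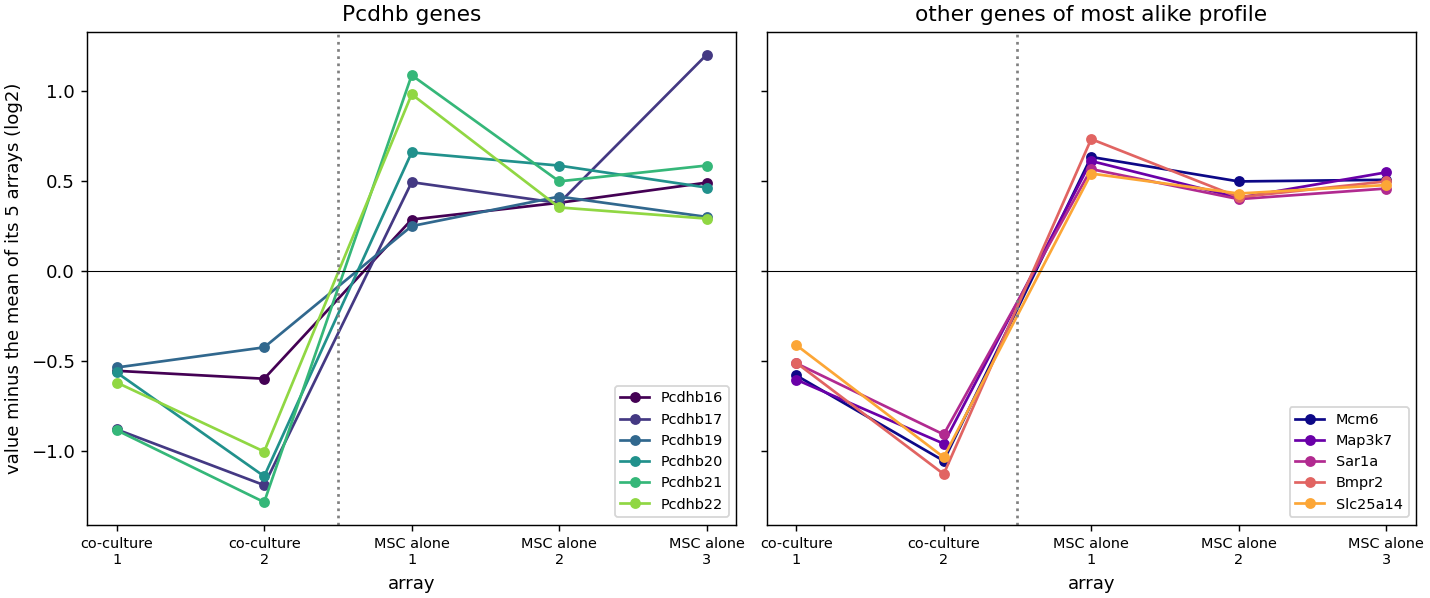
Values of each gene minus the mean of its 5 arrays (log2, vertical axis) for the 6 Pcdhb genes at their brighter or single probe set (left) and the 5 other genes of most alike profile (right), by array (horizontal axis, co-culture left of the dotted line and MSC alone right of it); lines only link the points of 1 gene. The Pcdhb genes differ among themselves in MSC alone, with Pcdhb17 highest in replicate 3 and Pcdhb21 and Pcdhb22 highest in replicate 1, whereas the genes on the right were picked for lying close to the median profile.

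Of 27 listed genes known to act on the clusters or on cohesin, which shapes the contacts of their promoters, 7 were in the table. At the brightest probe set of each gene 3 were higher and 4 lower in co-culture, and 51.7% of all named genes were lower. But 1 of the 4, Smchd1, was higher in its other probe set. Stag1, a cohesin subunit, was higher by 1.18 ± 0.23 (SE), at 8.03 and 7.49 in co-culture and 6.43, 6.59 and 6.73 in MSC alone. Its other probe set gave 1.16. Wapl, which releases cohesin from chromatin, and Pds5b, a regulator of cohesin, differed by -1.05 ± 0.28 and -1.08 ± 0.27. Atf7ip, a partner of the histone methyltransferase SETDB1, differed by -1.59 ± 0.36, with co-culture replicates at 6.99 and 5.89 and MSC alone at 8.20, 7.67 and 8.21. Cohesin-related genes in the table thus lay on both sides.

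Smchd1, a chromatin protein that represses clustered protocadherin genes in the mouse, was named after its values were seen, because its probe sets went opposite ways. The brighter, 1428251_at, stood at 9.76 and 9.83 in co-culture and at 10.33, 10.43 and 10.24 in MSC alone (difference -0.54 ± 0.17, SE). The dimmer, 1442497_at, stood at 5.40 and 5.35 in co-culture and at 4.57, 4.76 and 4.92 in MSC alone (0.63 ± 0.18). No direction can be given for Smchd1 from these values. Ctcf and 19 other listed regulators were not analysed here.

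Of 19 listed cadherins and catenins 5 were in the table and all 5 were lower in co-culture, as were 51.7% of named genes. Cdh2, N-cadherin, stood at 7.73 and 7.52 in co-culture and at 9.36, 8.91 and 8.66 in MSC alone, a difference of -1.35 ± 0.25 (SE), and of -0.90 in its other probe set. Cdh13, a cadherin anchored in the membrane by a lipid, differed by -1.26 ± 0.29, and its other probe sets by -1.29 and -1.52. Ctnnb1 and Ctnnd1, the catenins beta and p120 that bind the tails of classical cadherins, differed by -0.80 ± 0.18 and -0.62 ± 0.17. The other probe sets of Ctnnb1 differed by -0.71 and -0.58. The list's median was -0.80, against -0.61 over all named genes, in which higher and lower genes are mixed. The median over the 1731 lower probe sets of the table was -1.23, a larger fall than that of this list.

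Of 16 listed signalling partners of clustered protocadherins in general 4 were in the table, and all 4 were lower, as were 51.7% of named genes. The list is not specific to beta proteins, and whether any of the 4 acts with one was not tested. Fyn, a kinase known to bind protocadherin alpha proteins, stood at 5.89 and 5.18 in co-culture and at 7.20, 6.64 and 7.73 in MSC alone (difference -1.66 ± 0.37, SE). Wasf1 and Abi2, subunits of the actin-regulating WAVE complex that protocadherin tails can recruit, differed by -1.08 ± 0.21 and -0.68 ± 0.17, the second by -1.24 in its other probe set. Pdcd10, which binds the shared tail of gamma protocadherins, differed by -1.08 ± 0.27. The list's median was -1.08, against -0.61 over all named genes, higher ones included, and -1.23 over the 1731 lower probe sets of the table.

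Among markers of other cells that a culture could hold, 1 of 10 neuronal and neural crest markers, 2 of 9 macrophage markers, 0 of 10 T cell markers and 0 of 6 endothelial markers were in the table; the rest were not analysed here. Ncam1, an adhesion molecule of neurons and stromal cells, was lower in all of its 5 probe sets, at 7.34 and 6.59 in co-culture against 10.15, 9.86 and 8.70 in MSC alone in the brightest (difference -2.61 ± 0.47, SE). The macrophage markers Mpeg1 and Ctss were higher, as were 1642 of the 3373 probe sets of the table. They differed by 4.48 ± 0.26 and 2.89 ± 0.29 (SE). Whether macrophages or MSC held their RNA was not tested, nor was any part of such cells in the lower Pcdhb values. In RNA from a whole culture, fewer cells that use a Pcdhb gene and less of its RNA per cell cannot be told apart.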

How the data were processed

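The authors deposited log2 values, summarised per probe set with RMA, per the submitters' processing notes, with no version given; the sources used here do not give the rule that selected the 3373 probe sets. RMA corrects background, quantile-normalises arrays and summarises probes. Groups came from the sample titles.

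By the platform annotation 3013 probe sets had a single gene symbol, 69 had several and 291 had none; the symbols of all 8 Pcdhb probe sets matched RefSeq (GRCm38.p6), which also gave the gene order. The arrays name no genome build, so no coordinates are given, and no sequences were used. limma 3.58.1 (R 4.3.3, lmFit and eBayes) gave differences and SE on all 5 arrays, with no covariates or filter. Its tests were two-sided, with Benjamini-Hochberg over the table and a threshold of 0.05. The fit was tried on simulated arrays with a common spread and mostly unchanged probe sets. The deposited table is unlike them, so that trial checked only the code. The p-values of limma set a difference against the spread between these arrays only, whose number limits the precision. In a table treated as chosen on this comparison, differences may be too large and SE too small. Named genes were all Pcdhb probe sets, up to 4 genes of each list by size, neighbours in gene order and the 5 most alike genes; others are marked. Members and lists were chosen with earlier results of these data known. Alternatives left out each array, centred arrays, dropped dim or _s_at and _x_at probe sets, blocked on replicate number, dropped moderation and combined probe sets otherwise.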

Additional observations from a re-analysis of the deposited data

How the results depend on the processing

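The direction of the 8 Pcdhb probe sets could not turn under the alternatives run here, because their groups lay at least 0.67 apart, so only sizes are compared. Leaving out each array in turn, their median difference lay between -1.44 and -1.08, and 5 to 7 of the 8 were at least 2-fold lower; with centred arrays the median was -1.10. Single differences lay between -2.01 and -0.64 over 8 alternatives, and 4 of 64 such values moved by more than the pooled SD of their probe set, those of Pcdhb20 without either co-culture array and those of Pcdhb19 and Pcdhb16 (1441994_at) with centred arrays. Of these 8 alternatives, dropping moderation cannot change a difference, and blocking on replicate number repeats the differences found without MSC replicate 3. The count of 64 therefore overstates how much was varied. Taking a gene's mean over probe sets, or its dimmest one, 5 of 6 genes were at least 2-fold lower, against 4. Leaving out the dimmest 25% of probe sets removed all 8 members, so that filter gives no value for them. All 8 identifiers end in plain _at, so dropping _s_at and _x_at probe sets changed no member. Groups share replicate numbers 1 and 2, with no label saying what a number marks. Over the table the differences between replicates 1 and 2 in co-culture and in MSC alone had r = 0.40 across probe sets, which are not independent. With the replicate number as a block, on those 4 arrays, the median was -1.26, 5 of 8 members were at least 2-fold lower, and 3365 of 3373 probe sets passed the threshold in limma. The blocked differences are the same as those without MSC replicate 3, so they say nothing about pairing.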
